A study of Homo sapiens with 14 samples.

Results

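SUM159, a triple-negative breast cancer cell line, was compared after exposure to PF-06873600 and without it. The libraries were chosen by their titles: 2 SUM159 PF libraries (0.5 µM PF-06873600 for 7 days) and 2 SUM159 UT libraries (untreated), which are 4 of the 14 libraries of the series. The other 10 libraries come from A549, a lung cancer line, and only the 4 of them with the same compound, dose and time (A549 PF) or no compound (A549 UT) are used here, to show where SUM159 differed. Both SUM159 groups grew in the same serum-containing medium with insulin and hydrocortisone. Each group is a single cell line, and the series describes its duplicates as technical, so the p-values measure the spread between these libraries and not between separate cultures. When the untreated cells were harvested, and how dense they were, is not given in the sources used here.

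PF-06873600 inhibits the cyclin-dependent kinases CDK2, CDK4 and CDK6 and, by the study's account, CDK1 as well. CDK2, CDK4 and CDK6 phosphorylate RB and its relatives, which releases E2F transcription factors to switch on the genes of DNA replication, while the DREAM complex, which contains an RB relative, holds down the genes of mitosis in resting cells. Cells held out of the cycle for days can become senescent, a lasting arrest in which lamin B1 is lost, lysosomes expand and chemokines, interleukins and matrix proteases are released, a mixture called the senescence-associated secretory phenotype.

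Counts on genes came to 16582253 and 15967162 for untreated R1 and R2 and to 17106664 and 21149256 for treated R1 and R2. Levels are given as CPM, a gene's count scaled to that library total, and 3 counts, taken as the floor of detection, equal 0.142 to 0.188 CPM. The untreated libraries differed from each other by more than counting error (chi-square per degree of freedom 9.05, against 2.29 between the treated libraries), and transcripts of the mitochondrial genome made up 2.38% of untreated R1 and between 3.88% and 4.51% of the other 3 libraries. Of the line markers, VIM (vimentin) lay between 3609 and 4318 CPM and CD44 between 902 and 1338 CPM. PGR (progesterone receptor) was at 0 in every library and ESR1 (oestrogen receptor) at or below 0.662 CPM. ERBB2 (HER2) RNA was present, at 122 and 118 CPM in untreated and 127 and 130 CPM in treated libraries. EPCAM was at or below 0.844 CPM. Lung epithelial markers summed to at most 0.701 CPM and haemoglobin genes to at most 0.251 CPM.

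Most genes differed in level between the treated and untreated libraries. Of 15055 genes tested with edgeR's quasi-likelihood test, 5742 (38.1%) were higher and 5361 (35.6%) lower in treated cells at a Benjamini-Hochberg adjusted p under 0.05. Each count of list members in SUM159 below is to be read beside these shares. The directions were unequal in size. At a change of at least 2-fold, 2984 genes (19.8%) were higher and 1131 (7.51%) lower. Among genes with a mean of at least 50 counts, the first of these numbers was 1599. At 4-fold, 1338 genes were higher and 79 lower, and at 16-fold 372 were higher and 0 lower. The median log2 fold change was 1.04 among genes that rose and -0.63 among those that fell, while the median over all genes tested was 0.020. A gene was tested where at least 2 libraries reached about 10 counts. In 1456 genes both treated libraries reached this but not both untreated ones, here called passing the filter through the treated libraries alone. A single untreated library could still reach it, and a rise of these genes may follow from the filter. Of the 13495 genes that passed it in both untreated libraries, 4491 rose and 5361 fell. Among the 13495, 335 passed it through the untreated libraries alone in the same sense, so that a fall of theirs may follow from the filter as well. In bulk RNA, fewer cells of a kind and less RNA per cell cannot be told apart.

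**Figure D1:**
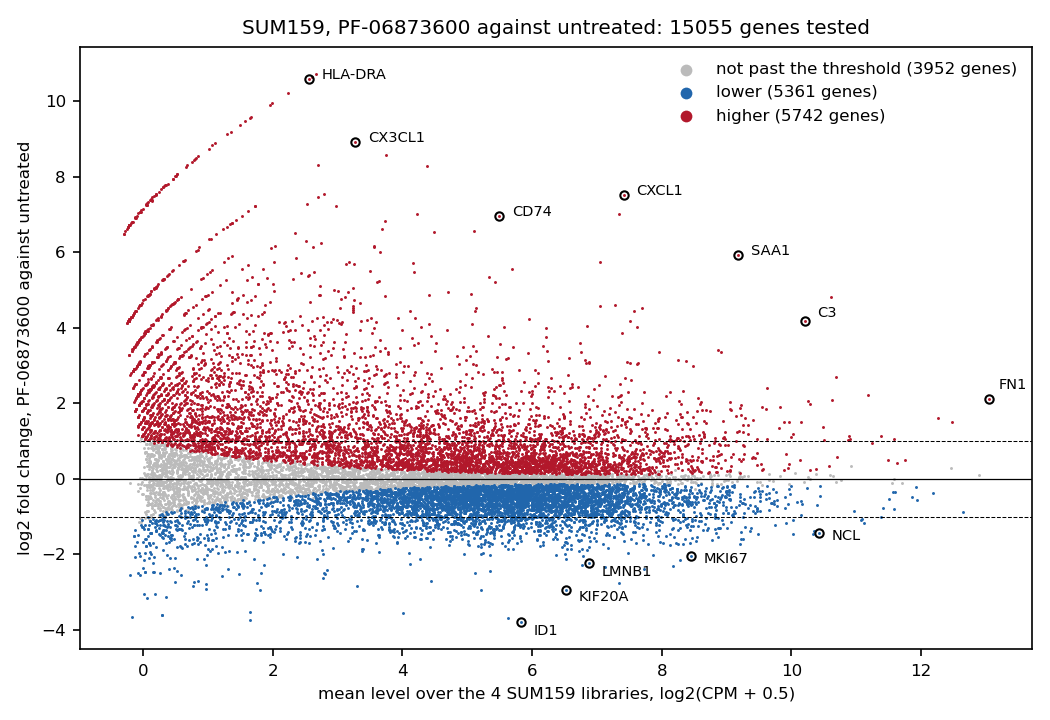
Each point is a gene: the x axis is the mean level over the 4 SUM159 libraries as log2(CPM + 0.5) and the y axis the log2 fold change of PF-06873600 against untreated. Of 15055 genes, 5742 were higher and 5361 lower at an adjusted p under 0.05, and the rises reach further from 0 than the falls, where genes with 0 or few counts in untreated cells have a plotted fold that depends on the fit.

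Of the kinases that the compound targets, CDK1, CDK2 and CDK4 RNA fell and CDK6 RNA did not pass the threshold. CDK1, the kinase of mitosis, fell from 129.7 and 131 to 76.3 and 81 CPM (log2 fold change -0.73, adjusted p = 1.51e-08). CDK2 was at 103 and 102 CPM in untreated and 75.9 and 79.4 CPM in treated libraries (log2 fold change -0.400 ± 0.0549 (SE), adjusted p = 1.05e-05). CDK4 went from 195 and 192 to 145 and 151 CPM. In these genes the treated libraries lay below the untreated ones. CDK6 overlapped between the groups, at 128 and 144 CPM untreated and 136 and 134 CPM treated (adjusted p = 0.911).

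Among 15 CDKs and cyclins, 9 fell and 3 rose. The cyclins of S phase and mitosis fell most: CCNA2 (cyclin A2) from 169 and 163 to 45.1 and 43.6 CPM and CCNB1 (cyclin B1) from 399 and 388 to 123 and 122 CPM. Of the D-type cyclins, the partners of CDK4 and CDK6, 2 of 3 rose. CCND1 (cyclin D1) rose from 555 and 526 to 863 and 884 CPM, and CCND2 (cyclin D2) 13.7-fold, from 0.543 and 1.002 to 11.3 and 10.02 CPM, where it passed the count filter through the treated libraries alone. CCND3 (cyclin D3) was at 172 and 178 CPM untreated and 177 and 178 CPM treated (adjusted p = 0.785). CCNE1 (cyclin E1, a partner of CDK2) was at 18.2 and 21.7 CPM untreated and 24.4 and 25.2 CPM treated, a log2 fold change of 0.32 ± 0.097 (adjusted p = 0.00863). That call was lost with DESeq2 (0.28, adjusted p = 0.128) and without untreated R1 (0.19, adjusted p = 0.0869). Cyclin E2 (CCNE2) did not pass, with an adjusted p of 0.256, and CCNH, cyclin H of the CDK-activating kinase, fell from 41.9 and 38.9 to 33.8 and 32.2 CPM.

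CDKN1A, which encodes the CDK inhibitor p21, rose 2.01-fold, from 50.5 and 44.8 to 97.4 and 94.6 CPM (adjusted p = 2.69e-09). CDKN2C (p18) and CDKN1B (p27) fell by 0.93 and 0.39 on the log2 scale. CDKN2A and CDKN2B, which encode p16 and p15, had between 0 and 3 counts in each library and were not tested, so a difference in them was not detectable at this depth. Several of the genes named here overlap a gene on the other strand (CDK2 with PMEL, CDK4 with TSPAN31, CCNA2 with EXOSC9, CCND1 with LTO1, CDKN1A with DINOL), and since it is not stated whether the counting used strand, their reads cannot be told apart.

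The RB and E2F list held 19 tested genes, of which 13 fell and 2 rose. RB1 was at 121 and 119 CPM untreated and 97.3 and 95.4 CPM treated, and E2F1 at 48.97 and 53.05 CPM untreated and 38 and 39.4 CPM treated, so that both were lower in each treated library. E2F2 fell 2.35-fold, and FOXM1, an activator of mitotic genes, fell from 293 and 289.5 to 129.8 and 125 CPM. The members that rose were TFDP2, a partner of E2F proteins, by 1.405 on the log2 scale, and RBL2, the RB relative p130 of the DREAM complex, from 64.7 and 63.6 to 91.8 and 89.9 CPM.

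The promoter of E2F2 is shown because the letters of an E2F motif (TTCCCGC or TTGGCGC, on either strand) stand in it and the gene fell. RefSeq places these 250 bases before the gene's start at chr1:23531234-23531483 of GRCh38.p14, on the minus strand, and capitals mark the match.
E2F2: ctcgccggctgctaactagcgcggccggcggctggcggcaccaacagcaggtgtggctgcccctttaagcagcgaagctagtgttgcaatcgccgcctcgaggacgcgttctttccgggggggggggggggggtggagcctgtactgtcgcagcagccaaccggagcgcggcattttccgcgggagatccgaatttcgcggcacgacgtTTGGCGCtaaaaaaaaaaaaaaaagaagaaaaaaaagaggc
In the window from 250 bases before to 50 after the start, these letters occurred in 25 of the 38 tested DNA replication genes with a promoter in the RefSeq table (65.8%) and in 8 of 16 genes of the RB and E2F list (50%). The share was 14.2% over the 11132 promoters of tested genes and 9.33% over all 27305 promoters. A match describes the letters and not binding.

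DNA replication genes fell nearly as a whole. Of 46 tested, 43 fell and 1 rose, 21 fell at least 2-fold, and the median log2 fold change was -0.98. UHRF1, which directs maintenance methylation of replicated DNA, fell 3.94-fold, from 148 and 139.9 to 34.1 and 38.8 CPM. ORC1, a subunit of the origin recognition complex, fell from 61.6 and 62.6 to 18 and 18.02 CPM, and GMNN (geminin, the inhibitor of origin licensing) from 57.9 and 55.4 to 17.3 and 15.2 CPM. In each of these the groups stood far apart. PRIM2, a primase subunit, was the member that rose, by 0.41 on the log2 scale.

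DNA repair and checkpoint genes moved the same way, with 30 of 32 lower, 1 higher and a median of -0.74. FANCD2 and FANCE, of the Fanconi anaemia pathway for crosslink repair, fell by 1.48 and 1.35, and BLM, a RecQ helicase, by 1.23 on the log2 scale. ATM, the kinase that responds to broken DNA, rose from 53.8 and 71.96 to 88.9 and 99.2 CPM.

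All 49 mitosis genes tested fell, 38 of them at least 2-fold, with a median of -1.39 and a range from -2.94 to -0.22. KIF20A, a kinesin of the central spindle, was at 165 and 159 CPM in untreated and 21.8 and 20.5 CPM in treated libraries, a 7.68-fold fall. PLK1, a kinase of mitotic entry, went from 289.6 and 276 to 43.2 and 41.04 CPM, and CDC20, an activator of the anaphase-promoting complex, from 365 and 345 to 64.5 and 71.8 CPM. The groups did not overlap for any of these. MKI67, which encodes the proliferation antigen Ki-67, spread more between the untreated libraries, at 473 and 649 CPM, and stood at 137 and 138 CPM after treatment (log2 fold change -2.03 ± 0.107, adjusted p = 2.67e-10). KIF20A overlaps BRD8 and CDC23, and PLK1 overlaps ERN2, on the other strand.

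The promoter of CDC20 (RefSeq, GRCh38.p14, chr1:43358731-43358980, plus strand, 250 bases before the gene's start) is shown for the letters TTTGAA, the core of the cell cycle homology region that the DREAM complex reads, with the matches on either strand in capitals.
CDC20: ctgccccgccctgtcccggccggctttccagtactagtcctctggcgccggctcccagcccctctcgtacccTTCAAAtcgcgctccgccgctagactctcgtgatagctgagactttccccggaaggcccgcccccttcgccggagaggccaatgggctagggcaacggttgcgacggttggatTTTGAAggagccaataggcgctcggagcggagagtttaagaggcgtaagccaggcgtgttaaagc
TTTGAA occurred in the promoter windows of 30 of 42 mitosis genes (71.4%), against 10.0% of the promoters of tested genes and 15.4% of all promoters.

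Nuclear lamina and chromatin genes fell in 17 of 20, with a median of -1.22. LMNB1 (lamin B1) went from 195 and 191 to 42.7 and 40 CPM, a 4.66-fold fall (adjusted p = 1.69e-13). HMGN2 and HMGB2, abundant chromatin proteins, fell by 2.04 and 1.85 on the log2 scale. H2AJ, a histone H2A variant, rose from 17.01 and 20.9 to 47.1 and 52.9 CPM.

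Replication-dependent histone genes moved against the other genes of S phase. Of 16 listed 10 were tested, of which 9 rose and 1 fell. With DESeq2, or with a mean of at least 50 counts, 0 were called lower. The filter was passed through the untreated libraries alone by 1 member. Of the 9 that passed the filter in both untreated libraries 8 rose, with a median of 2.75. H2BC21 rose from 1.75 and 1.82 to 33.5 and 34.6 CPM. H4C8, which passed the filter through the treated libraries alone, rose from 0.543 and 0.752 to 16.8 and 18.1 CPM. Transcripts of these genes mostly end in a stem-loop without a poly(A) tail, so a library of messenger RNA may hold few of them. The list also holds near-identical copies whose reads the counting may divide between genes.

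Of 28 p53 targets, 16 rose and 6 fell (57.1% and 21.4%, against 38.1% and 35.6% of all genes). Of the 26 that passed the filter in both untreated libraries 14 rose. GDF15, a stress cytokine that passed the filter through the treated libraries alone, rose from 0.482 and 0.564 to 16.5 and 18.2 CPM. BTG2, an antiproliferative gene, rose 3.67-fold. AEN (an exonuclease), PPM1D (the phosphatase WIP1) and DDB2 (a sensor of damaged DNA) fell by 0.996, 0.92 and 0.798 on the log2 scale.

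**Figure D2:**
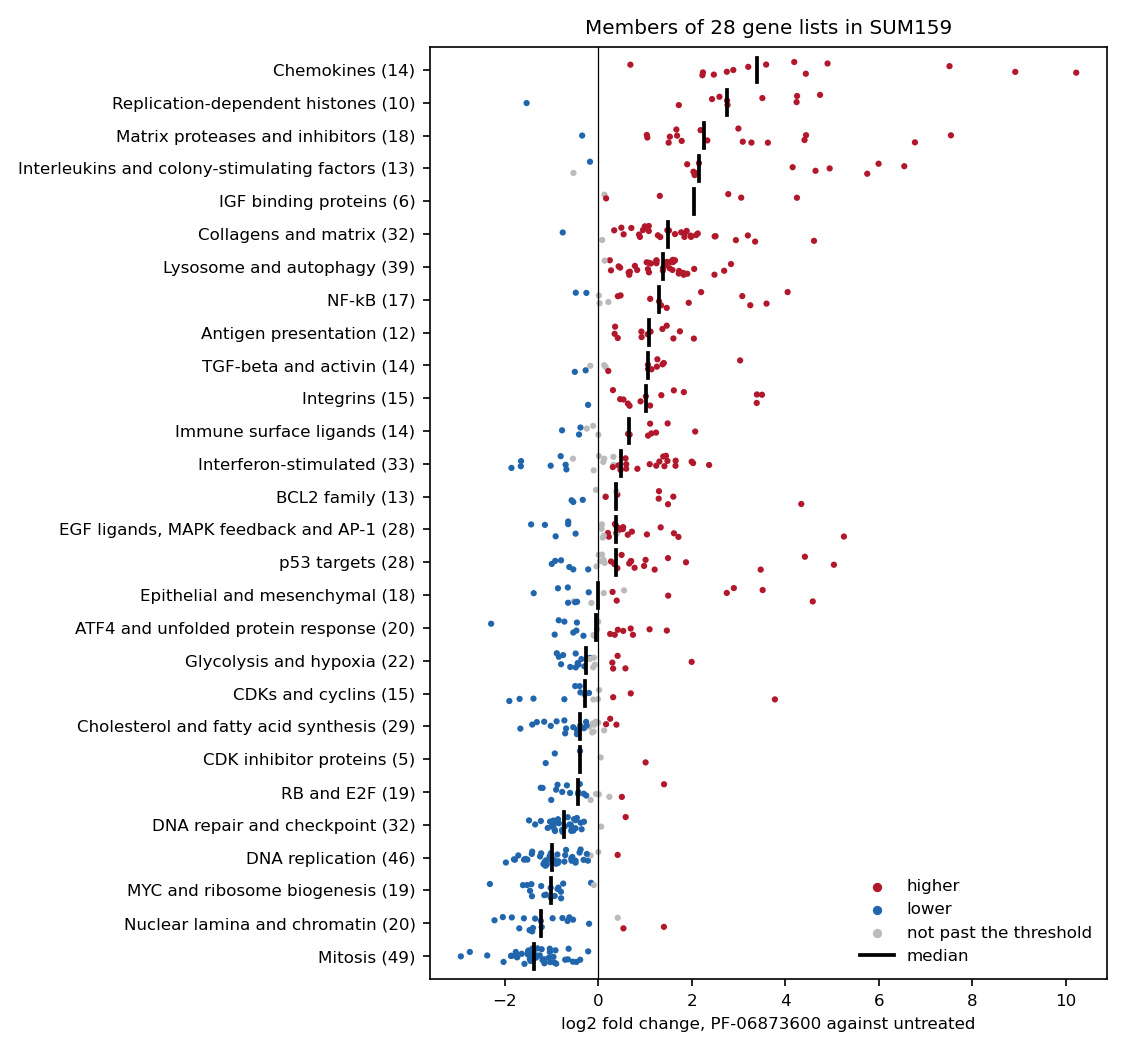
Each point is a tested member of a gene list (number tested in brackets), the x axis is its log2 fold change for PF-06873600 against untreated, colour gives the call at an adjusted p under 0.05 and black bars are medians. Mitosis genes have the lowest median (-1.39) and chemokines the highest (3.398).

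Of 19 chemokines listed 14 were tested, and all 14 rose. Of these, 4, among them CX3CL1 and CCL2, passed the count filter through the treated libraries alone, so that their rise may follow from the filter. The other 10, which passed it in both untreated libraries, rose as well, with a median log2 fold change of 3.05 (-0.08 over all genes that passed it there). CXCL1, a neutrophil attractant, was at 1.57 and 2.13 CPM in untreated and 339 and 337 CPM in treated libraries (182-fold, adjusted p = 3.41e-16). CXCL3, a close relative, rose from 1.81 and 2.44 to 65.2 and 62.2 CPM. CX3CL1 (fractalkine) had 0 and 1 counts in untreated and 303 and 397 in treated libraries, a ratio of 596 with a 95% counting interval of 106 to 23560. CCL2, which draws monocytes, had 0 counts in both untreated libraries and 138 and 185 after treatment, at least 45.6-fold higher than a floor of 3 counts per library. The CXCL genes are similar in sequence and may share reads.

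The promoter of CXCL1 (RefSeq, GRCh38.p14, chr4:73869143-73869392, plus strand, 250 bases before the gene's start) is shown for the κB core, GGNNTTTCC on either strand, which NF-κB proteins read, with the matches in capitals.
CXCL1: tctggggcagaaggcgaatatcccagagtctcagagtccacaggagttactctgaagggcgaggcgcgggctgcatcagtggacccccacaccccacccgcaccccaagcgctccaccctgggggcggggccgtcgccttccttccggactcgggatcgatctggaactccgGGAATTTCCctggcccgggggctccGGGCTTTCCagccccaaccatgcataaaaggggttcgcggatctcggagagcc
The κB core occurred in the promoter windows of 8 of 10 chemokines (80%), 8 of 14 NF-κB genes (57.1%) and 2 of 7 interleukins and colony-stimulating factors (28.6%), against 6.66% of the promoters of tested genes and 6.26% of all promoters.

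Interleukins and colony-stimulating factors rose in 11 of 13 tested, 4 of which passed the filter through the treated libraries alone. Of the 9 others 7 rose. CSF2, which encodes GM-CSF, rose from 0.543 and 0.376 to 42.97 and 44.3 CPM, and IL6 from 1.99 and 1.19 to 50.7 and 48.4 CPM. IL1B had 6 and 6 counts in untreated and 402 and 515 in treated libraries. CSF2 and IL1B passed the filter through the treated libraries alone. IL18 fell by 0.18 on the log2 scale, a call that was lost without treated R2 (-0.15, adjusted p = 0.155).

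NF-κB genes rose in 12 of 17 and fell in 2, with a median of 1.299. ICAM1, an adhesion molecule for leukocytes, rose from 13.3 and 12.8 to 219.7 and 213 CPM. TRAF1, a signalling adaptor, rose 12.1-fold, and NFKBIZ, a nuclear co-regulator, from 4.46 and 6.33 to 50.2 and 52.2 CPM. The subunit gene NFKB1 fell, from 104 and 99.4 to 86.5 and 83.7 CPM.

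Matrix proteases and their inhibitors rose in 17 of 18, of which 4 passed the filter through the treated libraries alone. Of the 14 others 13 rose. MMP13, a collagenase that passed the filter through the treated libraries alone, had 2 and 0 counts in untreated and 235 and 251 in treated libraries. The ratio was 207 with a 95% counting interval of 56.9 to 1712. MMP15, a membrane-bound protease, rose from 3.62 and 2.38 to 63.1 and 67.9 CPM and MMP7 (matrilysin) from 1.09 and 1.06 to 13.9 and 12.9 CPM. The AP-1 letters TGAGTCA occurred in 2 of the 10 promoters found for the 18 tested genes (20%). The share was 3.405% over promoters of tested genes and 4.92% over all promoters.

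Of 6 IGF binding proteins 5 rose, 1 of which passed the filter through the treated libraries alone, IGFBP7 from 25.6 and 23.1 to 191 and 214 CPM and IGFBP3 from 5.61 and 5.14 to 39.05 and 34.99 CPM. TGF-β and activin genes rose in 9 of 14, 2 of which passed the filter in that way, and fell in 2. BMP4, a ligand, rose 2.64-fold and LTBP1, which tethers latent TGF-β to the matrix, 2.59-fold. SKIL and SMAD7, inhibitors of SMAD signalling, fell by 0.503 and 0.27 on the log2 scale, and the SMAD7 call was lost with DESeq2 (-0.30, adjusted p = 0.182), without untreated R1 (adjusted p = 0.0587) and without treated R2 (adjusted p = 0.238). EGF ligands, MAPK feedback and AP-1 genes had 17 of 28 higher and 6 lower (60.7% and 21.4%, against 38.1% and 35.6% of all genes). Of these 28, 1 passed the filter through the treated libraries alone. DUSP6, a phosphatase of ERK, rose from 11.2 and 13.03 to 36.8 and 37.5 CPM, while ETV4 and EGR1, transcription factors downstream of ERK, fell by 1.44 and 1.14 on the log2 scale.

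**Figure D3:**
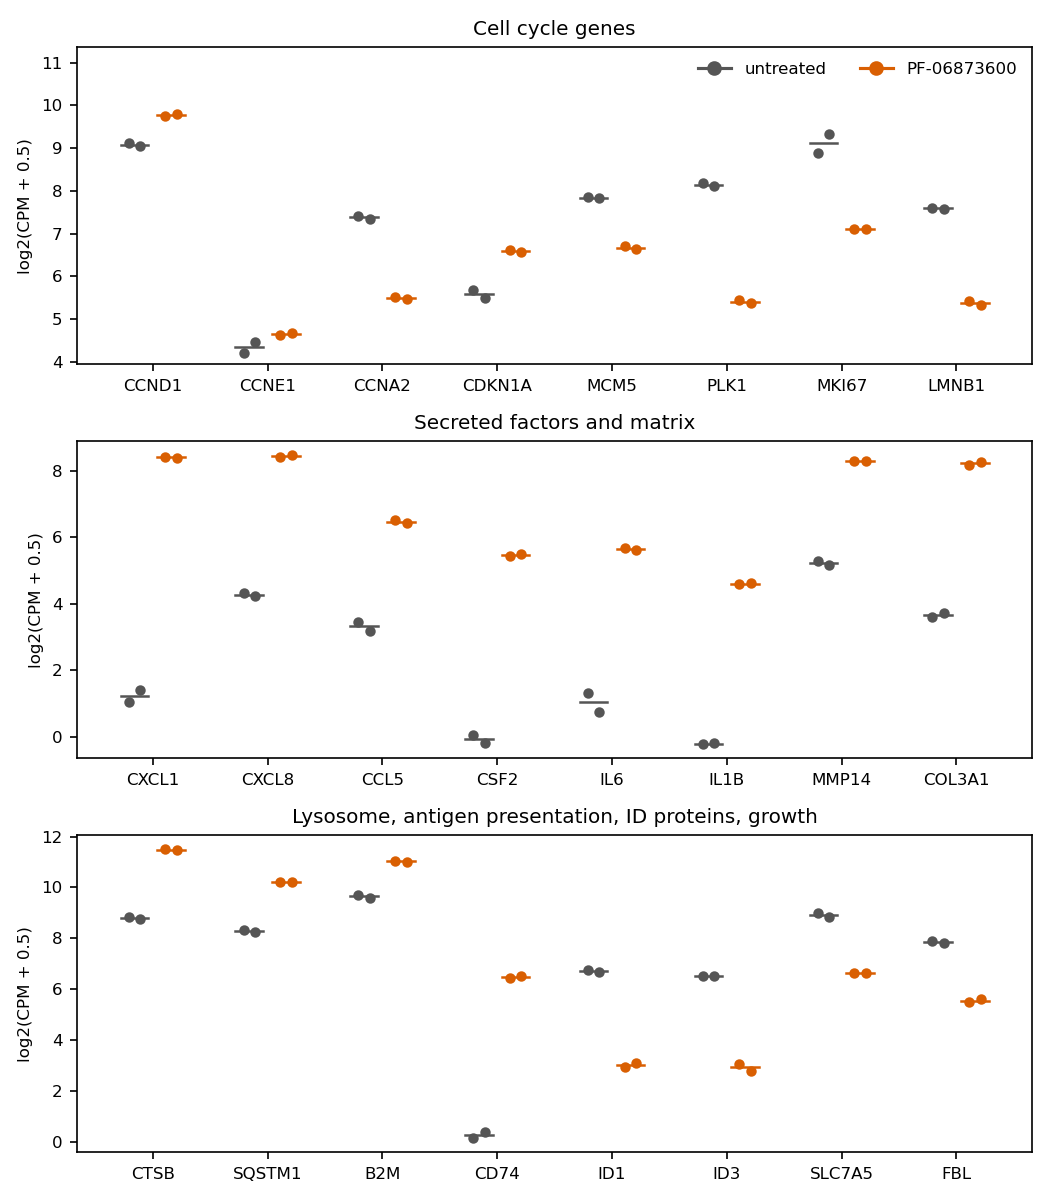
Level of selected genes in each SUM159 library as log2(CPM + 0.5), with points for R1 and R2 and a bar at their mean, grey for untreated and orange for PF-06873600. LMNB1, for example, stood at 195 and 191 CPM untreated and 42.7 and 40 CPM treated, and CXCL1 at 1.57 and 2.13 CPM untreated and 339 and 337 CPM treated.

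Collagens and other matrix genes rose in 30 of 32 and fell in 1, with a median of 1.49. COL3A1 (type III collagen) rose from 11.8 and 12.6 to 289 and 307 CPM. LOX, which crosslinks collagen, rose 9.18-fold. THBS1 (thrombospondin 1) fell, from 3377 and 3480.3 to 2008 and 2036 CPM. Integrins, receptors of this matrix, rose in 14 of 15, 1 of which passed the filter through the treated libraries alone: ITGA11, a collagen receptor, from 12.7 and 13.3 to 136 and 138 CPM and ITGAV from 174 and 171 to 606 and 619 CPM. ITGA6, a laminin receptor, fell by 0.22 on the log2 scale, a call that was lost without treated R2 (-0.20, adjusted p = 0.0721).

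Markers of other cell types moved with these groups. All 4 fibroblast markers (DCN, LUM, PDGFRA, PDGFRB) were higher in both treated libraries, and their summed level was 159.99 and 154 CPM untreated and 1165 and 1206.5 CPM treated. The 3 endothelial markers summed to 11.04 and 11.6 CPM untreated and 26.9 and 28.98 CPM treated, nearly all from PECAM1. CDH5 went from 0 counts in both untreated libraries to 16 and 20 counts, and VWF was at or below 0.468 CPM. The 5 leukocyte markers summed to 10.1 and 10.8 CPM untreated and 23.9 and 21.99 CPM treated. Of these, PTPRC (CD45) was at 9.35 and 9.90 CPM in untreated and 20.3 and 17.9 CPM in treated cells, CD14 went from 0.784 and 0.877 to 3.27 and 3.88 CPM, LYZ reached at most 0.234 CPM, and CD3E, a T cell gene, was at 0 in every library. The part of these markers in the results was not tested.

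Of 18 epithelial and mesenchymal genes 7 were higher and 7 lower, shares near those over all genes (38.1% and 35.6%), and 3 passed the filter through the treated libraries alone. KRT7, a keratin of simple epithelia, fell from 1922 and 1833 to 711 and 729 CPM. CLDN1, a tight junction protein, rose from 10.98 and 10.02 to 258 and 247 CPM. The mesenchymal regulators ZEB1 and ZEB2 rose by 0.304 and 0.39, and TWIST1 fell by 0.65 on the log2 scale.

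Of 33 interferon-stimulated genes 19 were higher and 7 lower (57.6% and 21.2%, against 38.1% and 35.6% of all genes). The filter was passed through the treated libraries alone by 1 and through the untreated libraries alone by 1. Of the 32 that passed it in both untreated libraries 18 rose and 7 fell. IFI27, IFI6 and MX2 rose, by 2.37, 2.03 and 1.996 on the log2 scale. HERC5, OASL and IFIT1, antiviral proteins, fell, OASL from 58.3 and 57.9 to 19 and 17.9 CPM. All 12 genes of the antigen presentation list rose, with a median of 1.09: HLA-B from 323 and 296 to 905 and 979.7 CPM, HLA-E 3.35-fold and HLA-F 4.12-fold. HLA genes are near copies of each other and may share reads.

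Class II antigen presentation was looked up after its values were seen, because HLA-DRA and CD74 stood among the 15 largest rises. HLA-DRA had 0 counts in both untreated libraries and 185 and 228 in treated ones, at least 58.6-fold higher than the floor of 3 counts per library. CD74, the invariant chain, rose from 0.603 and 0.814 to 86.4 and 89.9 CPM. HLA-DPA1, which overlaps HLA-DPB1 on the other strand, rose from 0.362 and 0.689 to 16.8 and 15.98 CPM, HLA-DMA 12.2-fold, and CIITA, the activator of class II genes, from 0.603 and 0.438 to 8.59 and 7.71 CPM. HLA-DRA, HLA-DPA1 and CIITA passed the count filter through the treated libraries alone, so that their rise may follow from the filter.

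Immune surface ligands rose in 8 of 14 and fell in 3 (57.1% and 21.4%, against 38.1% and 35.6% of all genes). PDCD1LG2 (PD-L2) rose from 8.201 and 7.39 to 34.3 and 31.5 CPM and the NKG2D ligand ULBP2 2.79-fold. CD59, a complement regulator, rose 2.35-fold, whereas CD55, another, fell by 0.78 on the log2 scale. Of 13 BCL2 family genes 7 rose and 3 fell (53.8% and 23.1%, against 38.1% and 35.6% of all genes), and 1 passed the filter through the treated libraries alone. The pro-death members BMF, PMAIP1 (NOXA) and BID rose by 1.603, 1.297 and 1.29, while the pro-death BAX fell by 0.54 and the pro-survival MCL1 by 0.33 on the log2 scale.

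Lysosome and autophagy genes rose in 38 of 39 and fell in 0, with a median of 1.38. CTSB (cathepsin B) rose from 459 and 428 to 2881 and 2848 CPM. IDUA and FUCA1, hydrolases of glycosaminoglycans and fucosylated glycans, rose 7.15-fold and 5.59-fold. The exception was TFEB, a regulator of lysosomal genes, at 9.59 and 10.6 CPM untreated and 10.6 and 11.5 CPM treated (adjusted p = 0.335).

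Of 19 genes of MYC and ribosome biogenesis, 18 fell and 0 rose, with a median of -1.02. FBL, the nucleolar methyltransferase fibrillarin, went from 237 and 225 to 44.02 and 48.3 CPM, ODC1 (ornithine decarboxylase, of polyamine synthesis) from 681 and 645 to 215 and 218 CPM, and GAR1, of small nucleolar ribonucleoproteins, fell 2.88-fold. Cholesterol and fatty acid synthesis genes fell in 18 of 29 and rose in 3, with INSIG1, a regulator of sterol synthesis, and SCD, a fatty acid desaturase, lower by 1.67 and 1.41 on the log2 scale. Of the 3 that rose, the call of SREBF2 was lost with DESeq2 and without either treated library. Glycolysis and hypoxia genes fell in 13 of 22 and rose in 5. The glucose transporter SLC2A1 fell by 0.89 and LDHA (lactate dehydrogenase A) by 0.85, and ADM (adrenomedullin) rose from 24 and 22.2 to 89.8 and 94.3 CPM. Of 20 genes of ATF4 and the unfolded protein response 8 were higher and 8 lower, near the shares over all genes (38.1% and 35.6%). SLC7A5, a transporter of large amino acids, fell from 503 and 456 to 97.5 and 97.97 CPM and DNAJB9, an ER chaperone partner, rose 2.76-fold.

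The largest falls over all genes were of ID proteins, which block basic helix-loop-helix transcription factors and are induced by BMP signalling. ID1 went from 108 and 102 to 7.19 and 7.99 CPM and ID3 from 91.4 and 90 to 7.89 and 6.29 CPM, 13.7-fold and 12.9-fold falls. ID2, looked up after these values were seen, fell by 1.66 on the log2 scale. The long noncoding RNA LINC00707 fell from 29.5 and 28.3 to 2.75 and 2.22 CPM.

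The largest rises were of genes hardly present in untreated cells. VNN1 (pantetheinase) had 0 counts in both untreated libraries and 197 and 254 in treated ones, at least 63.8-fold higher than the floor. TLR7 (a receptor for RNA) was also at 0 in both and had 194 and 231 counts after treatment, at least 60.4-fold higher. S100A9 and S100A8, which together form calprotectin, had ratios of 425 (95% counting interval 117 to 3514) and 195 (53.8 to 1617). SAA2, an acute-phase apolipoprotein, rose from 2.47 and 2.51 to 319.5 and 323 CPM, and EBI3, a cytokine subunit, 128-fold. VNN1, TLR7, S100A9, S100A8 and EBI3 passed the count filter through the treated libraries alone, so that their rise follows from the filter. SAA1, a near copy of SAA2, and the complement genes C3 and C1S were looked up after these values were seen. SAA1 rose from 19.4 and 18.2 to 1069.8 and 1200.2 CPM, C3 from 118 and 128 to 2236 and 2231 CPM and C1S 21.7-fold.

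In all, 104 genes had 0 counts in both untreated libraries and at least 10 in both treated ones, 74 of them protein-coding and 28 lncRNA, and 0 genes did the reverse. Among 1516 lncRNA genes tested 631 rose and 221 fell (median 0.41), whereas of 12848 protein-coding genes 4955 rose and 4973 fell. The lncRNA genes held only 0.688% to 0.887% of the counts in each library. How many of them passed the filter through the treated libraries alone was not counted, so its part in their rises was not tested. Ranked by genomic span and divided into 5 equal classes, the protein-coding genes with the longest span (from 103911 bases) rose in 46.1% and fell in 31.4%, and those with the shortest (up to 11486 bases) rose in 34.6% and fell in 40.7%. In classes of exon length the shares that rose were 38.8% for the longest and 36% for the shortest exons.

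In each of 5 lists of senescence genes that the study used, more members rose than fell. The Casella list had 32 of 36 tested genes higher and 2 lower, the Purcell list 29 of 36 and 3, and the Fridman list 40 of 69 and 16. The Fridman shares were 58.0% and 23.2%, against 38.1% and 35.6% of all genes. The Hernandez senescence list had 23 of 30 higher and 1 lower, and its list of secreted factors 20 of 23 and 2. Between 0 and 5 members of each list passed the filter through the treated libraries alone. The medians of the lists lay between 0.505 and 3.06 on the log2 scale, beside 0.020 over all genes. Among members that passed the filter in both untreated libraries they lay between 0.503 and 2.13, beside -0.08 over all such genes. Of the 18 secreted factors that did so, 15 rose and 2 fell.

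SUM159 and A549 share no control libraries, and their responses at the same dose and time were compared by a test of the difference (line by compound). The lines were kept in different media, and this cannot be told apart from the line. Of 16707 genes tested, 4269 (25.6%) had a more positive response in SUM159 and 4543 (27.2%) a more negative one. In A549 alone, 4424 (26.5%) of these genes were higher and 4270 (25.6%) lower after treatment. DNA replication genes went opposite ways: 38 of 46 were higher and 2 lower in treated A549, with a median of 0.77 against -0.98 in SUM159, and 44 of 46 had the more negative response in SUM159. UHRF1, for example, differed by -3.39 ± 0.145 (SE) on the log2 scale (adjusted p = 3.45e-10). A549 held UHRF1 at 12.3 and 10.4 CPM untreated (SUM159 148 and 139.9) and 32.5 and 28.1 CPM treated (SUM159 34.1 and 38.8). ORC1 and GMNN likewise started lower in A549 and ended near the SUM159 level, whereas PRIM2 started and stayed lower. How far these untreated levels account for the differences was not tested. The harvest time and density of untreated A549 cells are not given either. MYC and ribosome biogenesis had 19 of 19 genes more negative in SUM159, with 12 higher in A549, and DNA repair 27 of 32. Mitosis genes fell in A549 as well, in 37 of 49 (25.6% of all genes), and 35 had the more negative response in SUM159.

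Lysosomal genes differed the other way, 33 of 39 with a more positive response in SUM159, where the median was 1.38 against 0.19 in A549. Of the 20 ATF4 and unfolded protein response genes 16 had a more positive response in SUM159, and 16 fell in A549. p53 targets rose in 26 of 28 in A549 (26.5% of all genes), and 19 had a less positive response in SUM159, among them CDKN1A with a difference of -2.62 (A549 log2 fold change 3.63). ID1 and ID3 had A549 log2 fold changes of 0.33 and 1.504 and differed by -4.11 and -5.19. Chemokines were more positive in SUM159 in 7 of 14 and more negative in 1, and CXCL1 differed by 6.63.

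**Figure D4:**
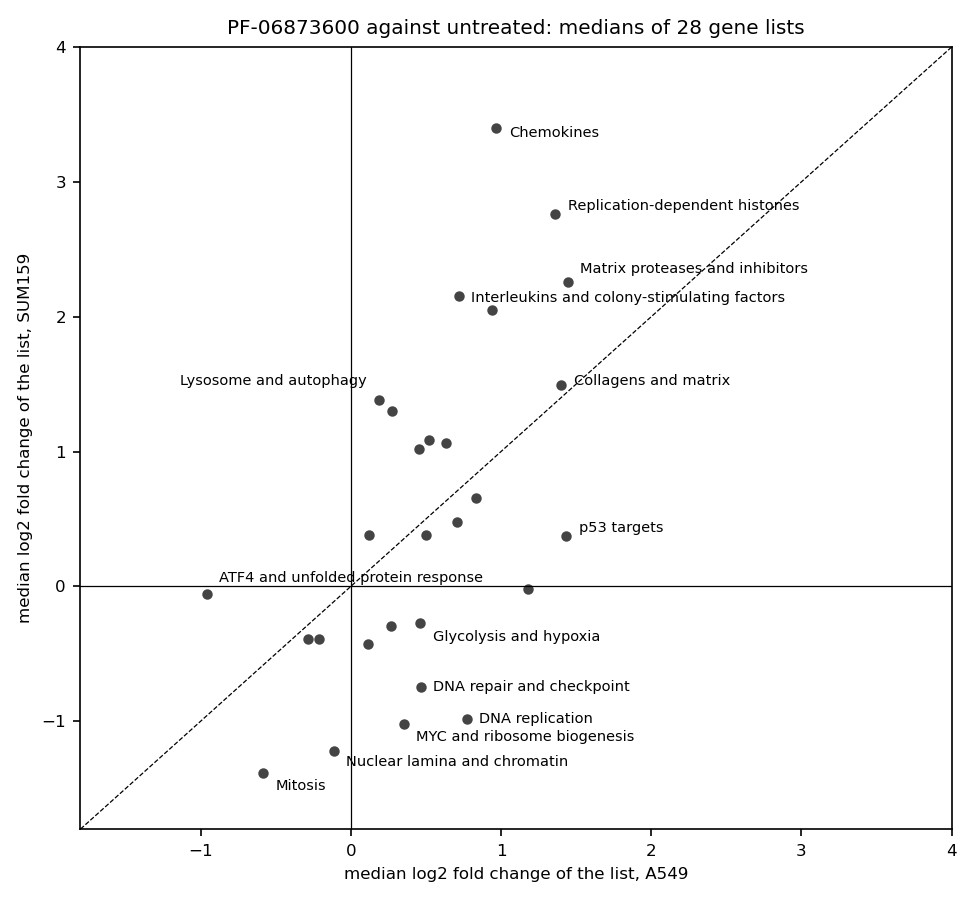
Each point is a gene list: the x axis is the median log2 fold change of its members for PF-06873600 against untreated in A549 and the y axis the same in SUM159. DNA replication (0.77 in A549, -0.98 in SUM159), DNA repair (0.46 and -0.74) and MYC and ribosome biogenesis (0.35 and -1.02) lie above 0 in A549 and below 0 in SUM159, and chemokines lie highest in SUM159 (0.97 and 3.398).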

How the data were processed

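Messenger RNA of 14 libraries (7 groups of 2) was sequenced after a stranded library preparation from DNase-treated total RNA. The authors deposited raw read counts per gene for 60683 Ensembl identifiers, with 9 summary lines that were left out here. In the SUM159 libraries these lines made up 29.1% to 32.4% of all alignments and reads listed, and 16.9% to 19.1% without the line of secondary alignments. The submitters' processing notes name HISAT2 2.2.1, HTSeq and GRCh38. The annotation release and whether counting used strand are not given in the sources used here. No reads were marked as duplicates, and intervals and floors cover counting error only.

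Gene names came from GENCODE 44 (60370 identifiers matched). Groups came from the sample titles. The 4 SUM159 libraries were fitted with edgeR 4.0.16 in R 4.3.3 (filterByExpr, scaling by total counts, quasi-likelihood F test, Benjamini-Hochberg adjustment, threshold 0.05), and the difference between lines as an interaction term in a model of 8 libraries. The biological coefficient of variation was 0.0472. An exact permutation test of 2 against 2 libraries cannot go below p = 0.333 and was not used. On simulated counts (14842 genes tested, 186 changed, at 2-fold or 4-fold) the SUM159 fit recovered 84.9% of 2-fold and 96.8% of 4-fold changes, with 5.59% false calls. The simulation gave every gene the same coefficient of variation and changed few genes, whereas 73.75% were called in the data. Its rates may therefore not hold for this comparison. Alternatives were TMM and RLE scaling, DESeq2 1.42.0, no filter, a mean of at least 50 counts, a replicate block, a model of all 14 libraries and leaving out each library.

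Named genes were a fixed set of cell cycle genes, the 3 largest rises and falls of each list and the 15 largest over all genes (significant, with groups that did not overlap and a mean of 10 CPM or more in the higher one). To these were added the 8 largest differences between the lines in each direction. Some genes that this rule admits are not reported here. Genes, lists and comparisons were chosen with earlier results of these data known. H2AC18 and SOD2 of the lists were not matched to the files by symbol and were left out. Tables and figures were made with Python 3.11.15, numpy 2.4.6, pandas 2.3.3 and matplotlib 3.10.9.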

Additional observations from a re-analysis of the deposited data

Results flagged for a closer look

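The response to PF-06873600 differed between SUM159 and A549 by the line by compound test for 4269 genes in the positive and 4543 in the negative direction, and the genes below had the largest such differences among those with at least 10 CPM in a SUM159 group. The difference, SUM159 response minus A549 response on the log2 scale, was 10.81 for MMP13, 9.86 for S100A8, 9.16 for CX3CL1, 7.69 for VNN1 and 7.06 for GALNT15, a glycosyltransferase. In A549 these 5 genes were at or below 0.556 CPM in every library, so the fitted values depend on how the model treats low counts. POU2F2, a B cell transcription factor, differed by 6.88 (A549 1.29 and 0.933 CPM untreated and 0.459 and 0.371 CPM treated), UNC13A, a protein of synaptic vesicle release, by 6.65 (A549 24.7 and 22.3 CPM untreated and 4.67 and 3.96 CPM treated) and CXCL1 by 6.63 (A549 25.8 and 23.8 CPM untreated and 47.3 and 44.3 CPM treated).

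In the negative direction MARCHF4 differed by -10.19, IL7R by -7.2, THY1 by -6.43, DTNA by -6.2 and CMKLR2 by -5.45. These 5 were at 0 in both untreated A549 libraries, which leaves the size of the difference to the fit, and each rose in SUM159, IL7R from 135 and 117 to 214 and 214 CPM. CPA4, a carboxypeptidase, differed by -6.83, with SUM159 at 240.2 and 269.9 CPM untreated and 932 and 927 CPM treated and A549 at 0.272 and 0 CPM untreated and 61.4 and 56.9 CPM treated. DIO2, a deiodinase, differed by -5.95 and LINC00707 by -5.58, and both fell in SUM159. LINC00707 stood at 5.44 and 4.87 CPM in untreated and 21.5 and 20.8 CPM in treated A549.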

How the results depend on the processing

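Over all genes, the number at least 2-fold higher in treated SUM159 fell from 2984 to 1599 when a mean of at least 50 counts was required, a setting that tests fewer genes. The other 69 counts over all genes, under the alternatives run, stayed within 1.5 times the reported ones. With each library left out in turn, genes higher ranged from 5061 to 5996, genes lower from 4783 to 5576, and differences between the lines from 3706 to 4399 (positive) and 3977 to 4815 (negative). DESeq2 called 4502 higher and 4543 lower. The replicate numbers are shared by the groups, but deviations of same-numbered libraries correlated at 0.0421 over 2 pairs, so they were not taken as pairs. A replicate block gave 5812 higher and 5474 lower. Of 1881 values of single genes under the alternatives, 13 lost the threshold and 0 reversed, and the report gives such losses beside the genes it names. Between the lines, the difference of S100A8 lost it without untreated A549 R1 (7.44, adjusted p = 0.9998) and that of VNN1 without untreated A549 R2 (4.41). Of the list counts 19 moved by more than 1.5 times, and under those alternatives they held 0 to 3 genes. Depth limited CDKN2A, CDKN2B and other genes near 3 counts.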
